A study of Mus musculus with 5 samples.

Results

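Ltb, Lta, Tnf, Tnfsf8, Tnfsf10, Tnfsf11, Tnfsf14 and Fasl encode ligands of the tumour necrosis factor (TNF) family. These 8 symbols were listed by name among the 27726 genes shared by the 5 libraries, and all 8 were present in each. They were measured in single group 2 innate lymphoid cells (ILC2s) sorted from the lungs of wild-type C57BL/6 mice. The sort kept Lin-, ST2+, CD127+, Thy1.2+, CD45+ cells, and the methods of the study name female mice aged 4 to 8 weeks with the cells of 5 mice pooled in each library. The naïve library came from mice without a tumour. The ta-non-activated libraries came from mice carrying a TC1 tumour, a lung epithelial line injected under the skin, and were taken 2 and 3 weeks after implantation. Naïve and ta-non-activated ILC2s went to sequencing directly and are called fresh here. The ta-activated ILC2s came from tumour-carrying mice at the same 2 times and were first cultured for 7 days, with TSLP, rmIL-33 and rhIL-2 added at 10 ng/mL each, so culture and cytokines cannot be told apart. Each library is a pool, and the 2 libraries of a ta group differ in week as well as in mice.

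Ligands of the TNF family are made as trimers on the cell surface, and some are cut off by proteases such as Adam17. They bind receptors of the TNF receptor family, which signal through TRAF adaptors to NF-kB or, where the receptor carries a death domain, to caspase 8. Ltb anchors the lymphotoxin heterotrimer to the membrane together with Lta, and this complex acts on the lymphotoxin beta receptor of stromal cells during the building of lymphoid tissue. ILC2s respond to alarmins of the airway, IL-33 and TSLP among them, with IL-5 and IL-13, and the TNF family ligands are a route from these cells to stroma, epithelium and other lymphocytes.

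Before the results, some libraries stood apart. Of 18628 barcodes, 16530 held 200 or more genes with less than 5% of counts from mitochondrial genes, 1601 to 6389 in a library, with medians of 4396 to 16090 UMIs (unique molecular identifiers, each a counted RNA molecule). Between 1 and 8 barcodes were shared by any pair of libraries. In the ta-non-activated library of week 3, the summed level of 14 T cell markers was 7760 UMIs per 1000000 (CPM) with all 14 detected, against 292 to 1234 CPM in the other 4 libraries. The summed level of 10 ILC2 markers was 1077 CPM there and 6609 to 11331 CPM elsewhere. A cell with more UMIs of the ILC2 list than of the T cell list is called an ILC2-marker cell below, and the others are T-marker cells. ILC2-marker cells made up 32.4% of that library (519 of 1601) and 90.0% to 97.9% of the other 4. Within 2 UMIs of that limit lay 225 of the 1601 cells, and 57 to 369 cells of each other library, with 369 of 6389 in the naïve one. In the week 3 fresh library the median depth was 2910 UMIs in ILC2-marker cells and 5533.5 UMIs in T-marker cells. The part of cells near the limit in the results was not tested. Of the 1082 T-marker cells in that library, 853 had a UMI of Dntt, Rag1 or Ptcra, genes of developing T cells that are part of the T cell list. The ta-non-activated library of week 2 stood apart in another way. At 2000 UMIs per cell, Il13 was found in 1587 of its 1753 ILC2-marker cells, against 271 of 5542 naïve cells and 28 of 463 cells of week 3 among fresh libraries, and 2003 of 2633 and 3129 of 3656 in the cultured ones. Il13 is part of the ILC2 list, so its share in ILC2-marker cells is not independent of how they were chosen. Outside the lists, this library's median depth was 16090 UMIs, against 4517 naïve, 4396 in fresh week 3, and 13636 and 12296.5 after culture. In ILC2-marker cells Hspa1a stood at 1.92 CPM there, 109 and 121 CPM in the other fresh libraries, and 0.437 and 0.425 CPM after culture. In ILC2-marker cells with Ltb, Il9 stood at 12328 CPM there, 0.117 CPM naïve, and 93.8 CPM in the week 2 culture. Both genes were chosen after their values were seen. Results are therefore given for all cells and for ILC2-marker cells. The part of these differences in the ligands' levels was not tested.

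Across fresh and cultured libraries the 8 ligands did not move as a group. Tnfsf11 was low after culture in both weeks. Tnf was lower in both cultured libraries than in every fresh one once T-marker cells were left out. Lta, Tnfsf8 and Tnfsf10 lay lower after culture in week 2 and higher in week 3. Ltb was higher after culture than before it within each week, and its highest level was that of the ta-activated library of week 3. Both cultured libraries lay below all 3 fresh libraries for Tnfsf11 and Fasl over all cells, where 10.8% of 11503 genes did so, and for Tnfsf11 and Tnf in ILC2-marker cells, where 9.4% of 11261 genes did so. Both lay above all 3 fresh libraries for none of the 8, where 17% of genes did so over all cells and 20% in ILC2-marker cells. No test stands behind these counts. They are 2 of 8 ligands over all cells and 2 of 7 in ILC2-marker cells, where Fasl was too low to compare, and such small numbers say nothing about the ligands beside that background.

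**Figure D1:**
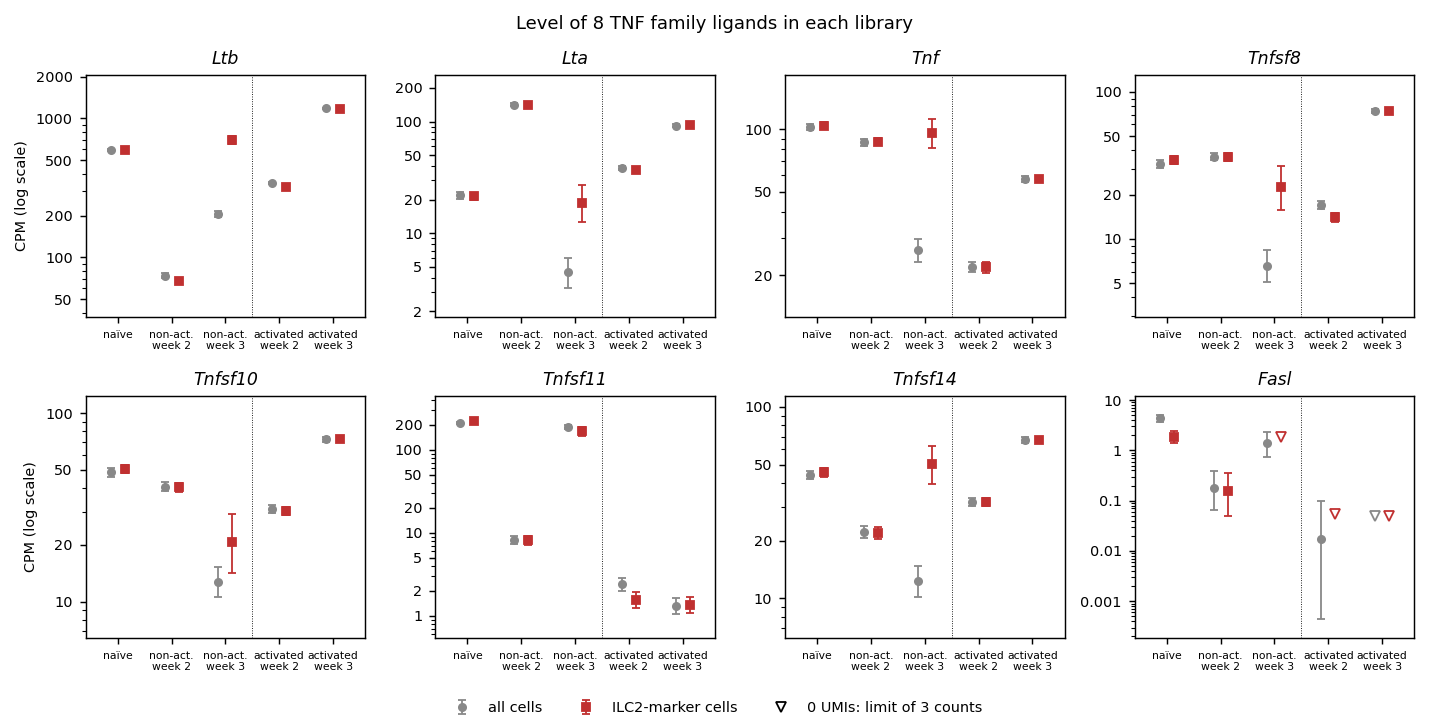
CPM of each ligand (log axis) in the 5 libraries, for all cells (grey circles) and ILC2-marker cells (red squares), with exact Poisson 95% intervals for counting error. Open triangles mark 0 UMIs at the limit of 3 counts, and the dotted line parts the 3 fresh from the 2 cultured libraries. Tnfsf11 lies at 223 CPM in naïve ILC2-marker cells and at 1.57 and 1.34 CPM after culture, while Ltb reaches 1179.5 CPM in the ta-activated library of week 3.

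Ltb, Tnf and Lta lie next to each other on chromosome 17 of GRCm38. Ltb takes bases 35194439 to 35196320 on the forward strand, Tnf 35199381 to 35202007 and Lta 35203165 to 35205351 on the reverse strand, so that the 3 genes span 10913 bases with gaps of 3060 and 1157 bases. No exon of the 8 ligands overlaps an exon of another annotated gene. The bases upstream of these 3 genes and of Tnfsf11, 2 times or more lower after culture in both weeks, are printed 5′ to 3′ on the strand of the gene, from RefSeq on GRCm38.p6 at chr17:35194257-35194438, chr17:35205352-35205601, chr17:35202008-35202257 and chr14:78308044-78308293. Capitals mark a match to the NF-kB motif or to TATAA on either strand.
Ltb: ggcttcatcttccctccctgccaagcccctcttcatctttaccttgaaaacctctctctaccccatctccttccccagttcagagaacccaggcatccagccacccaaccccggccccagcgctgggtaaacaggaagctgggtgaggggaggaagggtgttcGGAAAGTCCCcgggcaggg
Lta: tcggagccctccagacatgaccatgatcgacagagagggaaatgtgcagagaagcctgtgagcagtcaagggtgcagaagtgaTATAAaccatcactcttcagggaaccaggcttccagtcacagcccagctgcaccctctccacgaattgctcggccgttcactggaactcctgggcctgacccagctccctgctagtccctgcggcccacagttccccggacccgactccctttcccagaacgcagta
Tnf: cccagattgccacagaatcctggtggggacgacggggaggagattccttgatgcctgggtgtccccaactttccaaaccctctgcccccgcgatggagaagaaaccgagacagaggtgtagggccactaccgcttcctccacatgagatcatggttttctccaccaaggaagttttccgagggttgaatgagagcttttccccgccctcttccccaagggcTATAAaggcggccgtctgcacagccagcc
Tnfsf11: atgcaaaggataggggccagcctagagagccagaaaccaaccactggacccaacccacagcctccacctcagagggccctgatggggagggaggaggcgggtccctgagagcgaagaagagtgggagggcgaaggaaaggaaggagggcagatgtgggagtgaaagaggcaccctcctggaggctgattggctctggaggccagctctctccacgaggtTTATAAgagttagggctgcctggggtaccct
Among the 8 upstream windows of 250 bases before the RefSeq start, the NF-kB motif was matched once, 87 to 78 bases before the start of Ltb, where it overlaps a GGAAA match. The motif stood in 7.25% of 32851 mouse windows of this length. For Ltb, 68 bases nearer the start belong to the annotated gene and are not printed. TATAA was matched 29 to 25 bases before the start of Tnf, 31 to 26 bases before that of Tnfsf11 (both strands, overlapping) and 167 to 163 bases before that of Lta, and in 22.8% of all windows. The NFAT core GGAAA was matched upstream of all 8 ligands and in 55.6% of all windows, the AP-1 motif TGANTCA upstream of Tnfsf14 only and in 6.75%, and the interferon motif GAAANNGAAA upstream of none and in 2.98%. These matches describe letters and no binding was measured.

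Ltb was detected in every library and spread widely between them. Over all cells it stood at 589.6 CPM in naïve ILC2s, 73.9 and 205 CPM in the ta-non-activated libraries of weeks 2 and 3, and 344 and 1185 CPM in the ta-activated libraries. In ILC2-marker cells it stood at 594.6 CPM naïve, 67.3 and 700.4 CPM fresh in weeks 2 and 3, and 319 and 1179.5 CPM after culture. The order of the 5 libraries had no neighbours within their counting intervals, and fresh and cultured libraries overlapped. The ratio of cultured to fresh was 4.74 (95% counting interval 4.54 to 4.96) in week 2 and 1.68 (1.59 to 1.79) in week 3 for ILC2-marker cells. Over all cells the week 3 ratio was 5.77 (5.52 to 6.04). Ltb was thus 2 times or more higher after culture in both weeks over all cells, as were 7.49% of genes, but not in ILC2-marker cells, where 7.77% of genes were. In the T-marker cells of the ta-non-activated library of week 3 it stood at 56.1 CPM in the 853 cells with a Dntt, Rag1 or Ptcra UMI and at 652 CPM in the other 229. In T-marker cells of the other libraries it stood at 538 to 1803 CPM.

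Lta was highest in the week 2 fresh library, which stood apart from the other fresh ones as given above. Lta was at 21.3 CPM in naïve ILC2-marker cells, 141 and 18.8 CPM in the ta-non-activated libraries of weeks 2 and 3, and 36.7 and 92.2 CPM in the ta-activated libraries. The counting intervals of the naïve and the week 3 fresh values overlapped (19.7 to 23.1 and 12.7 to 26.9 CPM), and the other 3 values were apart. The cultured level was 3.83 times (3.64 to 4.04) lower than the fresh level in week 2 and 4.90 times (3.43 to 7.27) higher in week 3, where the fresh value rests on 30 UMIs. Over all cells these were 3.68 times lower and 20.5 times (15.2 to 28.5) higher. ILC2-marker cells with 5 or more UMIs of Lta held 73.3% of its UMIs in the week 2 fresh library. In the cultured libraries of weeks 2 and 3 such cells held 77.1% and 69.6%. The intervals take UMIs as independent and leave such uneven holding out. Lta forms secreted trimers of its own as well as the membrane complex with Ltb, and the 2 genes took different orders: the library with the most Lta, ta-non-activated week 2, had the least Ltb.

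Tnf, the prototype cytokine of the family, was lower after culture in ILC2-marker cells. It stood at 104 CPM in naïve cells, 87.1 and 95.3 CPM in the fresh tumour-associated ones and 21.8 and 57.8 CPM in the ta-activated libraries. The 3 fresh values lay close together, the week 3 value (80.8 to 112 CPM) within counting error of the other 2, and both cultured values lay below them. The cultured level was 4.0 times (3.73 to 4.28) lower in week 2 and 1.65 times (1.39 to 1.94) lower in week 3. Over all cells the week 3 fresh level was 26.4 CPM and the cultured level was 2.18 times (1.91 to 2.49) higher, so that the direction of week 3 differed between all cells and ILC2-marker cells, and the T-marker cells of that library stood at 12.3 CPM.

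Tnfsf11 encodes RANKL, the ligand of RANK (Tnfrsf11a), known for osteoclast formation and for the maturation of thymic epithelium. It stood at 223 CPM in naïve ILC2-marker cells, 8.08 and 166 CPM in both fresh tumour-associated ones and 1.57 and 1.34 CPM in the ta-activated libraries. Both cultured values were below every fresh value and within counting error of each other. The cultured level was 5.16 times (4.03 to 6.66) lower than the fresh level in week 2 and 124 times (96.5 to 161) lower in week 3. These intervals take UMIs as independent, while most cultured UMIs lay in few cells, as given below, so they are too narrow. Tnfsf11 was 2 times or more lower in both weeks over all cells and in ILC2-marker cells, as were 2.91% and 1.09% of genes. The 2 fresh tumour-carrying libraries differed 20.6 times (17.3 to 24.5), the week 2 library being the low one. T-marker cells of the week 3 fresh library held Tnfsf11 too, at 192 CPM, and at 199 CPM in those with a Dntt, Rag1 or Ptcra UMI, and over all cells that library stood at 188 CPM.

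The few cultured cells with Tnfsf11 RNA were deep ones, and their markers differed in part between the weeks. In week 2, 22 of 2692 ILC2-marker cells held 86 UMIs, and in week 3, 23 of 3743 held 82. Of these UMIs, 52 lay in 4 cells in week 2, with 32 in the highest. In week 3, 62 lay in 8 cells, with 14 in the highest. The median depths of the 22 and 23 cells were 49961.5 and 56755 UMIs, against 13964.5 and 12367.5 UMIs in cells without Tnfsf11. In week 2 they carried Gzmc, a granzyme, at 7547 CPM, with a UMI in 11 of 22. Gzmc stood at 199 CPM in 843 cells without Tnfsf11 that were at least as deep as the lower quartile of the 22. The median depth of these 843 was 32501 UMIs. The NK or ILC1 markers summed to 255 CPM in these 22 cells against 19.7 CPM in the 843, Cd3d stood at 17.7 against 3.88 CPM, and Il13 was found in 81.8% against 99.4%. Cd3d and Il13 are part of the T cell and ILC2 lists by which ILC2-marker cells were chosen. Gzmc was also higher in week 2 cells with Tnfsf8 (1752 against 27.8 CPM in cells of like depth), Lta (879 against 79.7 CPM) and Tnf (813 against 42.1 CPM). The same held for Ltb (368 against 6.52 CPM), Tnfsf10 (576 against 11.97 CPM) and Tnfsf14 (471 against 149.8 CPM). The shares of cells with a Gzmc UMI lay closer together. They were 19.1% against 14.97% for Tnfsf8, 20.6% against 13.5% for Lta and 18.2% against 13.6% for Tnf. For Ltb they were 11.6% against 10.9%, for Tnfsf10 13.8% against 11.5%, and for Tnfsf14 11.7% against 13.6%, the other way. The cells with each of these ligands overlap, so the same few cells with much Gzmc can enter several of these contrasts, which are not separate results. The part of these markers was not tested. In week 3 the cells with Tnfsf11 carried Il9 at 8106 CPM, with a UMI in 18 of 23, and Il22 at 3236 CPM. These stood at 502 and 108 CPM in 113 cells of like depth without Tnfsf11. Il22 was not particular to week 3. In week 2 it was found in 6 of the 22 cells with Tnfsf11 (157 CPM). Among the 2670 week 2 cells without Tnfsf11, of any depth, 11 had Il22 (9.35 CPM). Il9 was found in 3 of the 22 (68.4 CPM) and in 67 of the 2670 (121 CPM). Gzmc, Il9 and Il22 were chosen after their values were seen, and cells of this depth may hold more than 1 cell, since doublets were not removed.

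Tnfsf8, Tnfsf10 and Tnfsf14 shared a high level in the ta-activated library of week 3. Tnfsf8, the ligand of CD30, stood at 34.3 CPM in naïve ILC2-marker cells, 36.1 and 22.6 CPM in fresh tumour-associated cells of weeks 2 and 3 and 14.1 and 73.7 CPM in the ta-activated libraries. Naïve and week 2 fresh cells did not differ beyond counting error, and the cultured libraries were the lowest and the highest. The cultured level was 2.56 times (2.34 to 2.81) lower than the fresh level in week 2 and 3.27 times (2.36 to 4.67) higher in week 3. The week 3 fresh value rests on 36 UMIs in 15 cells, with 16 of them in 2 cells. Its interval takes UMIs as independent and leaves such uneven holding out. Tnfsf10, or TRAIL, which binds death receptors, stood at 50.5 CPM naïve, 40.5 and 20.7 CPM fresh with a tumour and 30.1 and 72.7 CPM after culture. The cultured level was 1.34 times (1.25 to 1.45) lower in week 2 and 3.51 times (2.5 to 5.11) higher in week 3, where the fresh value rests on 33 UMIs. Tnfsf14, or LIGHT, which binds the herpesvirus entry mediator (Tnfrsf14) and the lymphotoxin beta receptor, stood at 45.6 CPM naïve, 21.9 and 50.2 CPM fresh with a tumour and 31.8 and 67.3 CPM after culture. It was 1.46 times (1.33 to 1.59) higher after culture in week 2 and 1.34 times (1.08 to 1.70) higher in week 3.

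A change of 2 times or more downward in week 2 and upward in week 3 was met by Lta, Tnf and Tnfsf8 over all cells, where 0.748% of genes met it, and by Lta and Tnfsf8 in ILC2-marker cells, where 1.37% did. Each ratio compares 1 library with 1 other, so it holds for these libraries.

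Fasl, the ligand of Fas used by cytotoxic lymphocytes, was detected at low counts only. Over all cells it had 141 UMIs in naïve cells (4.35 CPM), 6 and 13 UMIs in the ta-non-activated libraries (0.181 and 1.38 CPM) and 1 and 0 UMIs in the ta-activated ones. In ILC2-marker cells 55 UMIs remained in the naïve library (1.86 CPM), 5 in the week 2 fresh library (0.152 CPM) and 0 in the other 3, where a count of 0 allows up to 0.0546 CPM in week 2 and 0.0490 CPM in week 3 after culture and 1.88 CPM in the week 3 fresh library. In naïve cells 47 of the 141 UMIs lay in 71 cells with UMIs of at least 2 of 4 NK-cell genes, at 107 CPM, and ILC2-marker cells without these stood at 1.09 CPM. Its low total in ILC2-marker cells gave no comparison between fresh and cultured libraries.

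Shares of cells with a UMI were compared next, and their order was not always that of the levels. To set libraries of unlike depth side by side, cells with at least 2000 UMIs were each thinned to 2000 UMIs, with 5542, 1753, 463, 2633 and 3656 ILC2-marker cells left in the naïve, the fresh week 2 and week 3, and the cultured week 2 and week 3 libraries. Ltb was found in 62.0% (60.7% to 63.2%, Clopper-Pearson) of naïve cells, 11.2% (9.74% to 12.8%) and 68.5% (64.0% to 72.7%) of fresh tumour-associated cells and 31.9% (30.1% to 33.7%) and 74.9% (73.5% to 76.3%) of cultured cells. None of these intervals overlapped, and the fresh library of week 2 was the lowest. Tnfsf11 was found in 23.8% of naïve cells, 1.6% and 19.4% of fresh tumour-associated cells and 0.114% and 0.0821% of cultured cells, the last 2 values resting on 3 cells each. Tnf was found in 14.8%, 13.9% and 12.7% of the 3 fresh libraries and in 3.42% and 9.27% of the cultured ones. Both cultured shares lay below all fresh ones, though the counting intervals of the 2 week 3 libraries overlapped (9.84% to 16.1% fresh and 8.35% to 10.3% cultured). Lta was found in 3.90%, 17.9% and 3.89% of fresh and in 3.8% and 10.3% of cultured cells, so that naïve and week 2 cultured cells had like shares at levels of 21.3 and 36.7 CPM. Tnfsf8 lay at 1.82% to 4.91% of fresh cells and at 2.20% and 9.60% of cultured cells, Tnfsf10 at 3.46% to 9.71% and at 7.03% and 12.8%, and Tnfsf14 at 4.39% to 9.50% and at 6.08% and 12.8%. Fasl was found in 0.343% of naïve cells and in 1 cell of the week 2 fresh library, and in none of the other libraries, where 0 cells allow up to 0.648% (fresh week 3), 0.114% and 0.0821%. Without thinning, the shares of ILC2-marker cells were 81.8%, 39.9%, 76.1%, 69.3% and 93.7% for Ltb and 39.1%, 11.3%, 25.8%, 0.817% and 0.614% for Tnfsf11, in the same order of libraries.

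Free RNA in droplets adds UMIs to cells that do not use a gene. In the naïve library, 44 cells with UMIs of at least 3 of 5 endothelial genes served as such cells, with a median of 4986.5 UMIs before thinning against 4655 in ILC2-marker cells. Ltb was found in 43.2% of them (28.3% to 59.0%), Tnfsf11 in 11.4% (3.79% to 24.6%), Tnf in 6.82% (1.43% to 18.7%), Tnfsf14 in 6.82% and Lta in 4.55% (0.555% to 15.5%). The naïve share of Lta was not above this value, which rests on 2 cells, and could not be told apart from background. Those of Tnf, Tnfsf11 and Tnfsf14 were above it in value but within its interval, that of Ltb was above its interval, and Tnfsf8 was found in 0 of the 44 cells, which allows up to 6.82%. Tnfsf10 was found in 29.5% of these cells, and endothelium is known to express it. Most endothelial-marker cells (41 of 53 before the depth limit) also fell among the ILC2-marker cells, so they may be mixtures, and the other libraries held too few (3 to 11) for such a value.

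**Figure D2:**
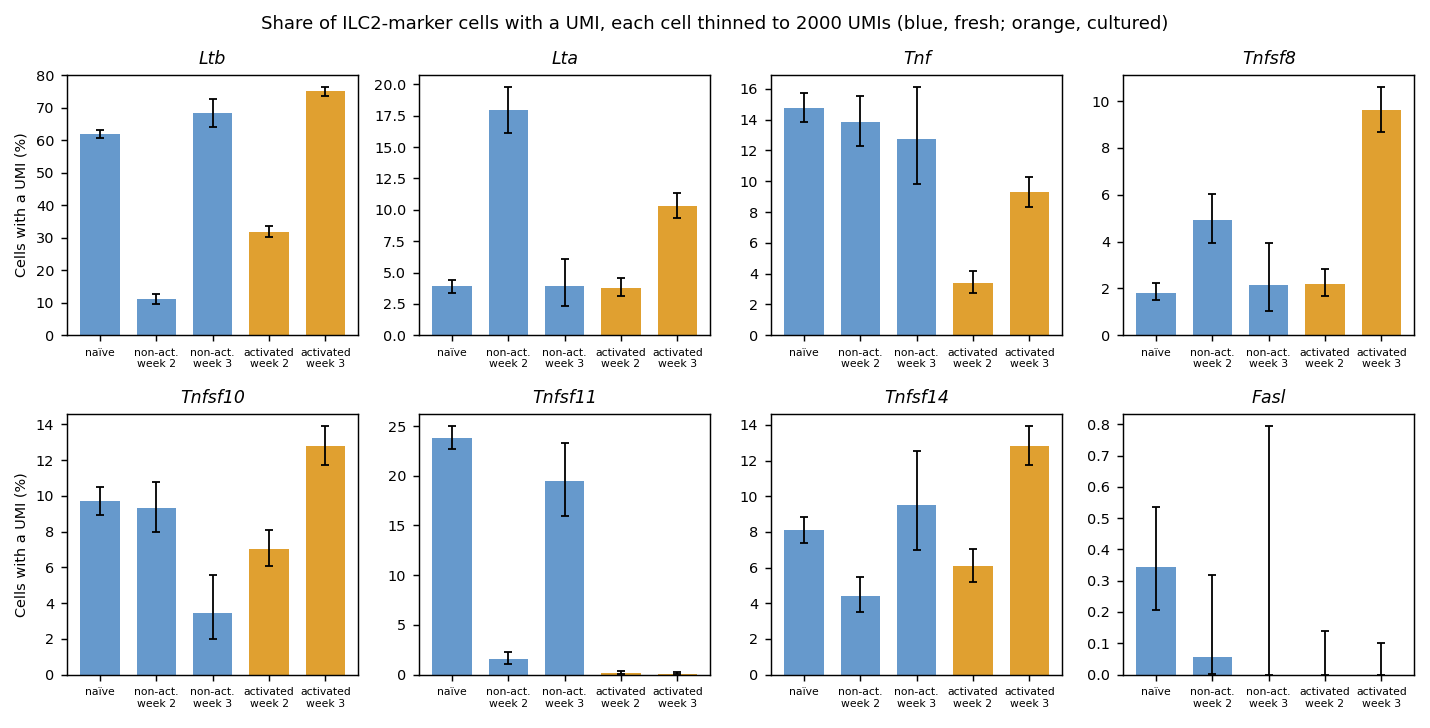
Share of ILC2-marker cells with at least 1 UMI of each ligand (percent, each panel with its own axis from 0) at 2000 UMIs per cell, with Clopper-Pearson 95% intervals for counting error. Blue bars are the 3 fresh libraries and orange bars the 2 cultured ones. Tnf sits at 12.7% to 14.8% in fresh and at 3.42% and 9.27% in cultured libraries.

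The 2 cultured libraries differed in most of the ligands. In ILC2-marker cells 6 of 7 ligands stood 2 times or more higher in week 3 than in week 2: Ltb 3.70 times (3.64 to 3.76), Lta 2.51 times (2.39 to 2.65), Tnf 2.65 times (2.48 to 2.83), Tnfsf8 5.24 times (4.85 to 5.66), Tnfsf10 2.42 times (2.28 to 2.56) and Tnfsf14 2.12 times (2.0 to 2.24). Among all genes 321 of 11261 (2.85%) did so. Over all cells the same 6 of 8 did, against 2.75% of genes. The median log2 ratio of the 7 ligands was 1.31, and that of all genes 0.07. Among 7 other TNF family ligands compared, Tnfsf4 and Cd70 did so, and Cd70, the ligand of Cd27, went from 16.7 to 111 CPM. None of 7 receptors of the 8 ligands did, and Tnfrsf8 (CD30, the receptor of Tnfsf8) stood 2 times or more lower in week 3, at 31.3 against 97.4 CPM. Of 22 signalling genes only Traf1, a TRAF family adaptor, stood 2 times or more higher (344 against 170.2 CPM). The cell cycle markers had a median log2 ratio of -0.61. Each week has 1 cultured library, so a difference between weeks and a difference between cultures cannot be told apart, and genes other than the 8 ligands were named here after their values were seen.

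**Figure D3:**
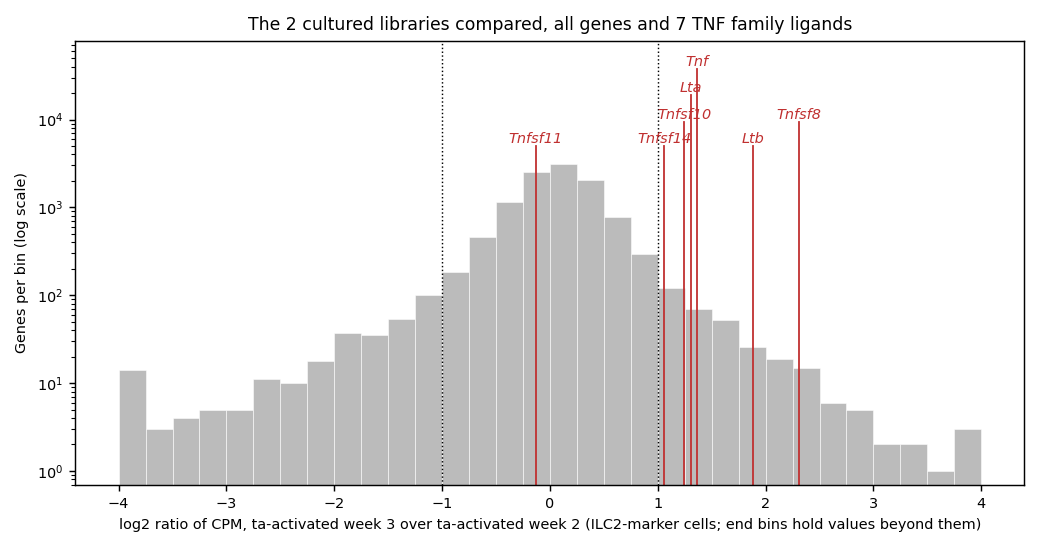
Histogram of all 11261 genes compared (log count axis) by the log2 ratio of CPM in ILC2-marker cells, ta-activated week 3 over week 2, with the 7 ligands compared as red lines and dotted lines at a change of 2 times. The 6 ligands right of the upper line include Tnfsf8 at 5.24 times and Ltb at 3.70 times, and Tnfsf11 lies near 0.

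Ligands varied between cells of a library as well. At full depth, 45 of 5748 naïve ILC2-marker cells had 5 or more UMIs of Tnfsf8 and held 81.9% of its 1013 UMIs, with 75 in the highest cell. For Tnfsf10, the cells with 5 or more UMIs held 2.42% of 1490 UMIs. The variance of UMIs per cell over their mean at 2000 UMIs was 8.30 for Tnfsf8 and 1.13 for Tnfsf10 in naïve cells, and 1.31 and 1.10 in the ta-activated library of week 3. Naïve Tnfsf8 was thus carried by few cells. It was found in 4.80% of naïve cells with Il13 (13 cells) and 1.67% of the others. For Csf2 these shares were 3.0% and 1.47%, and for Il5 1.72% and 1.84%. The relation to Il13 was not seen in the ta-non-activated library of week 2, with 4.66% and 7.23%. In the ta-activated libraries the shares with and without Il13 were 2.25% and 2.06% in week 2 and 9.72% and 8.92% in week 3.

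Lta and Tnf, neighbours in the genome, were found together more often than the product of their shares gives in 3 of 4 libraries compared, and so were other pairs. At 2000 UMIs both were found in 65 cells of the ta-non-activated library of week 2 where 43.5 would be found if they were independent, in 16 against 3.42 in the ta-activated library of week 2 and in 59 against 34.9 in that of week 3. In naïve cells both were found in 29, against 31.9. In the ta-activated library of week 2, Ltb was found with Lta in 62 cells against 31.9, Ltb with Tnfsf8 in 37 against 18.5 and Lta with Tnfsf8 in 11 against 2.20, so the excess was not particular to neighbouring genes. These cells come from 1 pool each and are no replicates, so the counts are a description.

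Lta and Ltb differed in their relation to Il9, the cytokine of mast cell growth, in most of the 3 libraries compared. In ta-non-activated cells of week 2, Lta was found in 25.7% (22.5% to 29.2%) of 676 cells with Il9 and 13% (11% to 15.2%) of the others. In ta-activated cells of week 2 the shares were 23.3% (9.93% to 42.3%) of 30 cells and 3.57% (2.89% to 4.36%) of the others. In week 3 they were 19.7% (10.9% to 31.3%) of 66 cells and 10.1% (9.14% to 11.1%) of the others, with overlapping intervals. Ltb was found in 7.10% (5.28% to 9.30%) of cells with Il9 and 13.7% (11.7% to 15.9%) of the others in the fresh library, in 50% (37.4% to 62.6%) and 75.4% (74.0% to 76.8%) in the cultured library of week 3, and in 40.0% (22.7% to 59.4%) and 31.8% (30% to 33.6%) in that of week 2, where the direction was the other one. In cultured cells Ltb was less frequent in cells with 2 or more cell cycle genes, at 19.0% (15.7% to 22.8%) against 34.9% (32.9% to 37.0%) in the ta-activated library of week 2 and 66.1% (61.9% to 70.1%) against 76.4% (74.9% to 77.9%) in that of week 3. In the fresh library of week 2 it was found in 13.2% (6.49% to 22.9%) of 76 such cells and 11.1% (9.63% to 12.7%) of the others, and in naïve cells in 55.2% (35.7% to 73.6%) of 29 and 62.0% (60.7% to 63.3%), with overlapping intervals. Il9 was chosen after its values were seen.

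**Figure D4:**
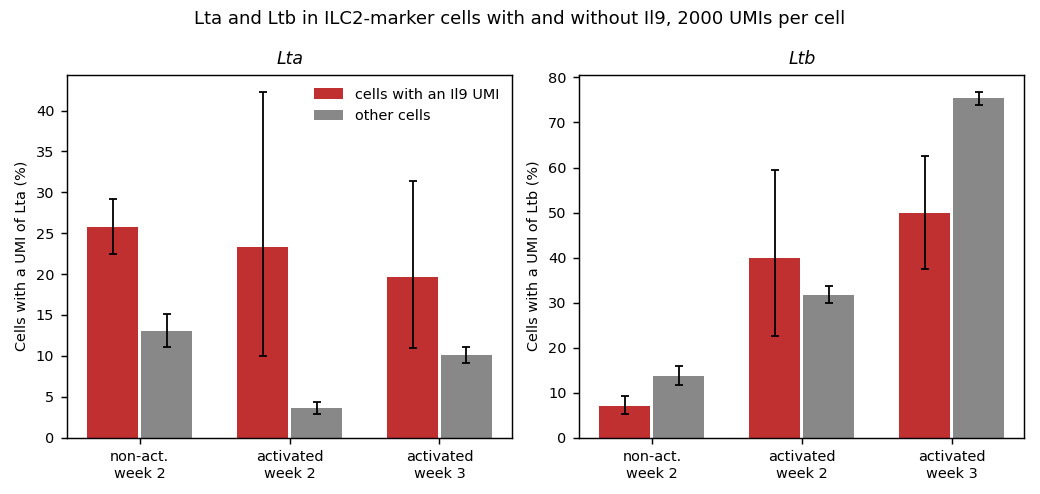
Share of ILC2-marker cells with a UMI of Lta (left) or Ltb (right), in percent at 2000 UMIs per cell, among cells with an Il9 UMI (red) and other cells (grey) in 3 libraries, with Clopper-Pearson 95% intervals. Lta is higher in value in the cells with Il9 in all 3 (25.7% against 13% in the fresh library), and Ltb lower in 2 of them. The intervals of Lta overlap in the ta-activated library of week 3.

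The replicated comparison, ta-activated against ta-non-activated with 2 libraries in each, called no ligand. edgeR's quasi-likelihood test on summed counts gave 0 of 12643 genes (0%) an adjusted p under 0.05, with 2120 (16.8%) at an unadjusted p under 0.05, and in ILC2-marker cells 0 of 12472, with 1523 (12.2%). Tnfsf11 had the largest estimate of the 7 ligands tested, with a log2 fold change of -5.68 ± 1.57 (SE, n = 2 against 2, edgeR adjusted p = 0.252) over all cells and -6.05 ± 1.53 (edgeR adjusted p = 0.304) in ILC2-marker cells. With DESeq2, which called 8.23% of genes over all cells and 3.75% in ILC2-marker cells, the adjusted p of Tnfsf11 was 6.26e-05 and 4.35e-06. In ILC2-marker cells edgeR also called it without the week 2 fresh library (adjusted p = 0.0333, 0.562% of genes called), without the cultured library of week 2 (0.00549, 1.25%) or of week 3 (0.0106, 1.59%), and not without the week 3 fresh library (0.0570). With the week as a block it was not called in these cells (adjusted p = 0.0927, 1.19% of genes called).

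Ltb had a log2 fold change of 2.40 ± 0.78 (edgeR adjusted p = 0.265) over all cells, and DESeq2 called it there (adjusted p = 0.0320). In ILC2-marker cells the estimate was 0.77 ± 1.16 (edgeR adjusted p = 0.809). Tnf had -0.70 ± 0.81 over all cells and -1.41 ± 0.57 in ILC2-marker cells (edgeR adjusted p = 0.678 and 0.412). Lta had -0.41 ± 1.5 over all cells. Its sign turned without the week 2 fresh library, to 3.91 (edgeR adjusted p = 0.0496, 12.1% of genes called), and without the cultured library of week 2, to 0.17 (edgeR adjusted p = 0.995). Tnfsf14 had 1.36 ± 0.58, Tnfsf8 0.86 ± 1.10 and Tnfsf10 0.76 ± 0.78 over all cells, with edgeR adjusted p-values of 0.327, 0.705 and 0.636. Fasl was too low to pass the filter. The p-values measure the spread between 2 pools that also differ in week.

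**Figure D5:**
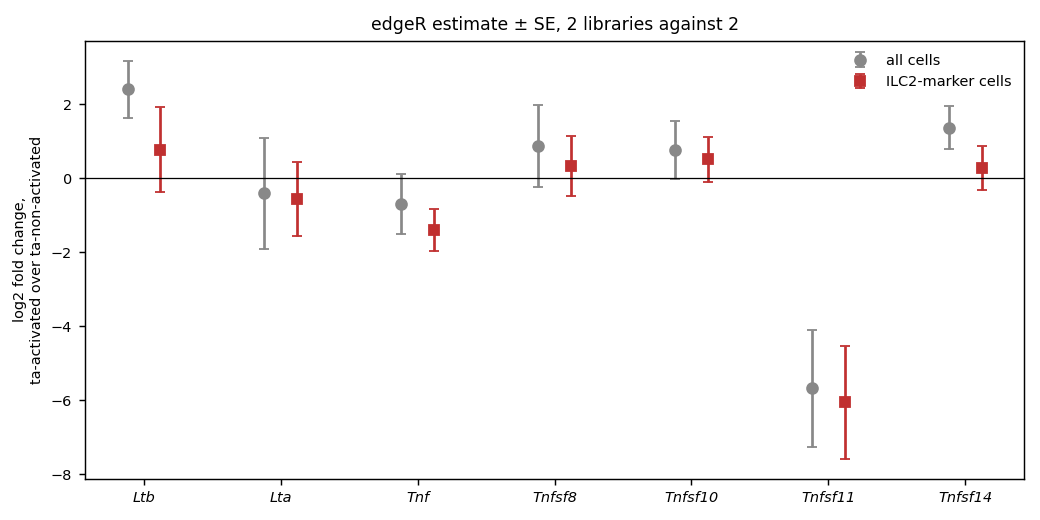
edgeR log2 fold change of 7 ligands, ta-activated over ta-non-activated (2 libraries against 2), for all cells (grey circles) and ILC2-marker cells (red squares). Bars are the standard error derived from the F statistic. Tnfsf11 lies at -5.68 and -6.05, and the estimate of Ltb goes from 2.40 to 0.77 without T-marker cells.

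Genes of the pathway around the ligands were read from lists. Of 59 such genes tested, 0 were called by edgeR over all cells or in ILC2-marker cells. DESeq2 called 6 and 4 of them, beside 8.23% and 3.75% of all genes tested, and such small numbers say nothing about the lists. By sign over all cells, 4 of 7 other TNF family ligands, 6 of 9 receptors of the 8 ligands, 10 of 15 other TNF receptor family members, 14 of 22 signalling genes and 5 of 6 shedding proteases and their partners had an estimate above 0, and their median log2 fold changes were 1.20, 1.17, 0.22, 0.16 and 0.52, beside -0.02 over all genes. In ILC2-marker cells these medians were 0.76, 0.49, 0.64, -0.06 and 0.49, beside -0.01. Of 37 list genes with at least 20 CPM in a library, 5 stood 2 times or more higher after culture in both weeks over all cells (13.5%, on log2(CPM + 1)), beside 7.16% of 7420 genes at that level, and so few genes say nothing about the lists. Tnfrsf9 (4-1BB, a costimulatory receptor) stood at 56.2 CPM naïve, 18.5 and 7.03 CPM fresh with a tumour and 195 and 97.9 CPM after culture. Tnfrsf18 (GITR) stood at 302 CPM naïve, 208 and 127 CPM fresh and 609.5 and 636 CPM after culture, and its week 3 fresh level was 502 CPM in ILC2-marker cells. Tnfrsf8, the receptor of Tnfsf8, stood at 0.0926 CPM naïve, 15.2 and 2.13 CPM fresh and 93.6 and 31.1 CPM after culture, with 0 UMIs in the ILC2-marker cells of the week 3 fresh library. The ligand was thus lower and its receptor higher after culture in week 2, and both were higher in week 3. Tnfrsf23, a decoy receptor, went from 1.23 and 0.852 CPM to 21.8 and 9.54 CPM, and Tab2, an adaptor of the TAK1 kinase, from 41.7 and 39.1 CPM to 85.5 and 109 CPM. The receptors of Ltb, Lta and Tnf were at 0.426 to 1.78 CPM (Ltbr), 1.69 to 12.2 CPM (Tnfrsf1a) and 20.8 to 97.7 CPM (Tnfrsf1b) over the 5 libraries.

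Naïve ILC2s have 1 library, and no test was made against it. In ILC2-marker cells, naïve cells stood 2 times or more above the week 2 fresh library for Ltb (8.84 times), Tnfsf11 (27.6 times) and Tnfsf14 (2.09 times), where 31.9% of genes did so, and below it for Lta (6.59 times lower), where 18.7% did. Against the week 3 fresh library only Tnfsf10 stood 2 times or more higher (2.44 times, 24.7% of genes) and no ligand lower (3.1% of genes). The naïve matrix was made with Cell Ranger 6.0.0 and the other 4 with 3.0.2. Its ratio to the week 2 fresh library was higher for genes with longer introns over 7419 genes (Spearman's rho 0.554, a description across genes). The median log2 ratio was -0.62 for 791 genes with under 2000 intronic bases and 1.91 for 1965 genes with over 50000. Spearman's rho was 0.570 against the week 3 fresh library, and 0.572 and 0.547 against the cultured libraries of weeks 2 and 3. The intronic bases were 366 for Ltb, 804 for Lta, 988 for Tnf, 2839 for Tnfsf14, 5870 for Fasl, 20134 for Tnfsf10, 26233 for Tnfsf8 and 28363 for Tnfsf11. The part of this in the naïve values was not tested.

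The genes most like each ligand were sought by the root mean square difference of centred log2(CPM + 1) over the 5 libraries in ILC2-marker cells, among 7180 genes with at least 20 CPM in some library. Tnf was closest to Zc3h12a (0.16), an RNase known to degrade cytokine transcripts. Tnfsf11 was closest to Lpcat2 (0.19) and then to the heat shock genes Hspa1a (0.40) and Hspa1b (0.43), which stood at 109 and 200.2 CPM in naïve cells, 1.92 and 3.66 CPM in the week 2 fresh library, 121 and 216 CPM in that of week 3 and 0.425 to 1.06 CPM after culture. Ltb was closest to Gpr34 (0.39), Lta to Pdgfb (0.25), Tnfsf8 to Dus2 (0.19), Tnfsf10 to Zfhx2 (0.12) and Tnfsf14 to Arhgef1 (0.16). Among the ligands the closest pair was Tnfsf8 and Tnfsf10 (0.43), and Ltb and Lta lay 2.21 apart. Over 5 libraries such likeness is a description of these values.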

How the data were processed

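Lung ILC2s were profiled on the 10x Genomics 3' platform. The values the authors deposited are UMI counts for each gene in each barcode, not normalized. The headers name Cell Ranger 3.0.2 for 4 matrices and 6.0.0 for the naïve one, and the submitters' processing notes name GRCm38. The annotation used for counting is not given in the sources used here. Gene models were taken from GENCODE M21 and promoters from RefSeq, both on GRCm38. The members and gene lists were chosen with earlier results of these data known.

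Barcodes with 200 or more genes and less than 5% of counts from mitochondrial genes entered, and doublets were not removed. Total counts of the kept cells were 9394957 to 61830293 UMIs per library, and intervals and limits cover counting error only. Intervals of levels and of their ratios take UMIs as independent, and are too narrow where few cells hold most UMIs. Levels are UMIs over all UMIs, and are compared between libraries, not between genes. Background shares use genes with a mean of at least 1 CPM. The replicated test summed counts per library and used edgeR 4.0.16 (filterByExpr, TMM, quasi-likelihood F test, Benjamini-Hochberg over all genes, threshold 0.05) in R 4.3.3. The SE given with an edgeR estimate was derived from the test, as the absolute log2 fold change over the square root of F. DESeq2 1.42.0 was an alternative. A trial on simulated counts gave all genes a common dispersion and libraries of like cell make-up. It therefore cannot judge the fit on these libraries, and nothing is concluded from it. The study's methods use a rank test over cells. Cells of 1 library are not replicates, so libraries were summed instead. Python 3.11.15, numpy 2.4.6, scipy 1.17.1 and pandas 2.3.3 did the rest. Alternatives were other normalizations, filters, cell limits, ILC2-marker cells, the week as a block, and each library left out. Same-week libraries did not deviate together over all cells (correlation of deviations -0.05 over 11503 genes), so the week was no block in the reported fit. As the week 3 fresh library was mostly T-marker cells, this value cannot tell a shared week from cell make-up. The fit in ILC2-marker cells followed the same choice without a correlation of its own. Named genes were the 8 ligands, at most 5 genes of each list with at least 20 CPM in a library and 2 times or more apart the same way in both weeks, any list gene past the threshold, and the 3 genes most like each ligand.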

Additional observations from a re-analysis of the deposited data

Results flagged for a closer look

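Some ligands went opposite ways with culture in the 2 weeks, with counting intervals of both ratios on their own side of 1. These intervals take UMIs as independent, while the week 3 fresh UMIs of Tnfsf8 lay in few ILC2-marker cells. Those of Lta were held unevenly too, as given above. The log2 ratio of cultured to fresh CPM in week 3 minus that in week 2 was 6.24 for Lta, 4.58 for Tnfsf8, 3.1 for Tnf and 2.90 for Tnfsf10 over all cells. In ILC2-marker cells it was 4.23 for Lta, 3.07 for Tnfsf8 and 2.24 for Tnfsf10, and Tnf was lower after culture in both weeks. With 1 library for each week and state the difference between weeks was not tested. The 2 fresh libraries behind it also differ in their Il13 and T cell markers, as given above, and the part of those in the difference was not tested.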

How the results depend on the processing

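Of the log2 fold changes of the ligands over all alternatives, 130 kept direction and side of the threshold. Another 14 reversed, and 7 passed the threshold in the same direction. A value that did both is counted as reversed, as for Lta without the week 2 fresh library. DESeq2 called Ltb (2.35) and Tnfsf11 (-5.73) over all cells and Tnfsf11 (-6.09) in ILC2-marker cells. It called 1041 genes, 6 of them from the pathway lists (Cd40lg, Tnfrsf18, Tnfrsf23, Tnfrsf26, Tnfrsf9 and Tnfsf12), and in ILC2-marker cells 468 genes, 4 from those lists (Tnfaip3, Tnfrsf23, Tnfrsf26 and Tnfrsf9). Lta turned from -0.41 to 0.11 with 3 fresh against 2 cultured libraries. With the week as a block Lta turned to 1.08, and in ILC2-marker cells Tnfsf8 turned to -0.069. The block called 0 genes over all cells, with 1505 at an unadjusted p under 0.05, and 148 genes in ILC2-marker cells, of them 1 from the lists (Tnfrsf23), and it changed no call of a ligand. The cause of these shifts was not tested.

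Leaving out 1 library leaves its group with 1 sample, assumed to vary like the other group. Over these fits, in all cells and in ILC2-marker cells, the log2 fold change ran from -0.44 to 3.21 for Ltb, -1.38 to 3.91 for Lta, -2.25 to 0.64 for Tnf, -1.26 to 2.83 for Tnfsf8, -0.23 to 2.07 for Tnfsf10, -6.99 to -2.38 for Tnfsf11 and -0.35 to 2.06 for Tnfsf14. The number of genes called ran from 0 to 1646 and of pathway genes from 0 to 16, both highest without the week 2 fresh library. Over all cells Tnfsf11 was called without that library (edgeR adjusted p = 0.0269) and Lta too, and 513 genes were called without the week 3 fresh library. Fasl had a value in 5 alternatives (2 such fits, no filter, all 5 libraries, and 3 fresh against 2 cultured), from -7.68 to -5.10, with none called.

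Shares of all cells lay below all 3 fresh libraries in both cultured ones for Tnfsf11 and Fasl. At 1000 UMIs per cell this was 1 ligand, Tnfsf11, and without thinning 1 ligand, Tnfsf14, lay above. The background over all genes is given for levels and not for shares of cells, so these counts say nothing about the ligands. Of the levels in single libraries 106 moved by less than their interval and 94 by more, and of the shares 39 and 121. Much of this came from settings that change the measured quantity itself. Leaving mitochondrial and ribosomal protein genes out of the total moved 36 levels, and each of the 2 other barcode limits moved 7. A limit of 2 UMIs, no thinning and 1000 UMIs per cell moved 37, 37 and 36 shares, and ILC2-marker cells moved 11. Depth limits Fasl in all libraries and Lta, Tnfsf8 and Tnfsf10 in the ILC2-marker cells of the week 3 fresh library, which hold 1594804 UMIs.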
